A study of Populus alba x Populus glandulosa with 12 samples.

Results

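KANADI, class III HD-ZIP and AS1 genes encode the transcription factors that give a leaf its upper and lower side. The table of leaf RNA examined here holds 20 poplar copies of them among 34749 genes: 9 KANADI copies (5 of KAN1, 2 of KAN2 and 2 of ATS), 8 class III HD-ZIP copies (2 each of PHB, REV, ATHB8 and ATHB15) and 3 AS1 copies. A poplar gene was taken as a copy when the table paired it with the Arabidopsis locus of that name: AT5G16560 (KAN1), AT1G32240 (KAN2), AT5G42630 (ATS), AT2G34710 (PHB), AT5G60690 (REV), AT4G32880 (ATHB8), AT1G52150 (ATHB15) or AT2G37630 (AS1). No row carried the loci of KAN3 (AT4G17695) or PHV (AT1G30490), which were not analysed here. The plants were a hybrid poplar, Populus alba × P. glandulosa, and their leaves were sampled in 3 groups of 4 libraries each: line 7 and line 2 of plants overexpressing PagSUPa, a C2H2-type zinc finger protein (OE), and a nontransgenic control (CK). Leaf age, the promoter that drives PagSUPa, the number of plants per library and the origin of each line are not stated in the labels, and p-values measure the spread between these libraries, which may be technical.

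In Arabidopsis, KANADI proteins of the GARP family set lower-side (abaxial) identity, and class III HD-ZIP proteins set upper-side (adaxial) identity and also pattern the vascular strands. Their domains exclude each other, and microRNAs of the miR166 group cut HD-ZIP III transcripts on the lower side. AS1, a MYB protein, works with AS2 on the upper side and keeps meristem genes of the KNOX class silent in the leaf.

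Values are TPM, a transcript's share of a library corrected for its length and scaled to a fixed total. Between 22710 and 24607 genes reached 1 TPM per library. TPM keep no record of depth, so no counting interval is given, and in whole leaves fewer cells of a type and less RNA per cell cannot be told apart. No row was named SUPERMAN or PagSUPa. The homolog of ZFP11, a zinc finger gene of the SUPERMAN family, was at 1210 to 1551 TPM in line 7, 1247 to 1714 TPM in line 2 and 0 to 0.112 TPM in CK. Mesophyll markers summed to 19740 to 43750 TPM in OE libraries and 42680 to 50350 TPM in CK. The 2 copies of RBCS1A, which make up most of that sum, did not pass the limma test across all genes. The GAPA copies and PSBO1 Potri.005G130400 did not pass either (limma adjusted p from 0.178 to 0.725). Copies of LHCB2.1, PSBO1 and CAB4 were lower, at log2 changes of -1.75, -1.21 and -0.89. These were 3 of 9 rows, against 34.0% of all genes tested, and again 3 of 9 without CK replicates 1 and 2, against 12.6%. By contrast, shoot meristem markers summed to 0.235 to 0.542 TPM in OE libraries and 0.091 to 0.427 TPM in CK. Of the root list, 22.1 to 45.3 TPM in OE libraries and 17.9 to 41.6 TPM in CK were mostly from copies of SHR, and the WOX5 copy stayed at or below 0.57 TPM. CK replicates 1 and 2 had the highest median ratio scaling factors (1.23 and 1.21, against 0.883 to 1.07 in the other libraries), and results that rest on them are given without them as well.

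KANADI transcripts were lower in both OE lines. In 8 of 9 copies all 8 OE libraries lay below every CK library, a pattern that 16.0% of all 34749 genes showed. A test across all genes called the 3 copies that passed a filter on low values, 1 each of KAN2, ATS and KAN1, lower, and of these the KAN2 copy passed the filter through its CK libraries. The median log2 fold change over all 24926 genes tested was -0.13. The test was limma on log2(TPM + 1) for genes with at least 1 TPM in at least 4 libraries, with a Benjamini-Hochberg adjusted p of 0.05 as threshold. In it 34.0% of all genes were called lower in OE leaves, so that a lower call is common here; median ratio scaling changed the split over all genes from 5511 higher and 8469 lower to 7527 higher and 6753 lower, and left the 3 KANADI copies lower. Without the filter on low values, the limma test called 9 of 9 KANADI copies lower, against 29.1% of all genes.

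KAN2 acts redundantly with KAN1 on the lower leaf side in Arabidopsis. The more abundant copy (Potri.003G096300) was at 0.597, 1.005, 0.511 and 0.799 TPM in replicates 1 to 4 of line 7, 0.637, 0.456, 0.749 and 0.303 TPM in those of line 2, and 4.42, 3.42, 2.87 and 2.93 TPM in those of CK. The highest OE value, in replicate 2 of line 7, lay far below the lowest CK value. Means were 0.632 ± 0.219 TPM in OE leaves (SD, n = 8) and 3.41 ± 0.718 TPM in CK leaves (SD, n = 4), and the log2 fold change of both lines over CK was -1.43 (SE 0.13, limma adjusted p = 1.42e-05). It was -1.35 in line 7 and -1.52 in line 2 (limma adjusted p = 0.000105 and 3.77e-05). The value without CK replicates 1 and 2 was -1.27 (limma adjusted p = 0.000691). The 4 CK libraries alone carried this copy past the filter, and 1 OE library just reached 1 TPM (1.005), so that it was tested because of its CK level and its p is given as a description. The other KAN2 copy (Potri.001G137600) was at 0.023 to 0.132 TPM in OE libraries and 0.259 to 0.756 TPM in CK.

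ATS, also called KAN4, is known in Arabidopsis for the separation of ovule coats. The copy Potri.014G037200 was at 2.38, 2.98, 0.905 and 1.27 TPM in replicates 1 to 4 of line 7, 1.51, 1.15, 2.38 and 0.589 TPM in those of line 2, and 9.56, 6.99, 3.79 and 3.61 TPM in those of CK. All OE libraries lay below CK, although CK itself fell into 2 high and 2 low libraries. The log2 fold change came to -1.38 (SE 0.29, limma adjusted p = 0.00227), with -1.25 in line 7 and -1.50 in line 2 (limma adjusted p = 0.0119 and 0.00376). Without CK replicates 1 and 2 the change was -0.89 (limma adjusted p = 0.0597) and missed the threshold, while the OE values remained below the 2 CK libraries left. The other ATS copy (Potri.002G130200) was at 0 to 0.103 TPM in OE libraries and 0.088 to 0.136 TPM in CK, and these ranges overlap.

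KAN1, the founding member of the family, had 5 copies of unequal level. The leading copy (Potri.017G137600) was at 3.11, 4.25, 1.72 and 2.48 TPM in replicates 1 to 4 of line 7, 2.94, 2.698, 3.48 and 2.44 TPM in those of line 2, and 6.11, 5.59, 5.1 and 4.33 TPM in those of CK. Its OE and CK values did not overlap, with the nearest pair at 4.25 TPM in line 7 and 4.33 TPM in CK. The log2 fold change came to -0.71 (SE 0.16, limma adjusted p = 0.00367), with -0.73 in line 7 and -0.69 in line 2 (limma adjusted p = 0.0103 and 0.0102), and without CK replicates 1 and 2 it was -0.58 (limma adjusted p = 0.0688). The next copy in level (Potri.004G082400) was at 0.262, 0.51, 0.088 and 0.12 TPM in replicates 1 to 4 of line 7, 0.168, 0.173, 0.188 and 0.17 TPM in those of line 2, and 1.77, 1.66, 0.779 and 1.06 TPM in those of CK. Every OE library was below 1 TPM for this copy and for Potri.012G042100, which was at 0.121 to 0.391 TPM in OE libraries and 0.726 to 1.72 TPM in CK. The copies Potri.015G031600 and Potri.T105400 were at 0.10 to 0.406 TPM in OE libraries and 0.544 to 0.957 TPM in CK for the first and 0.086 to 0.187 TPM in OE libraries and 0.261 to 0.359 TPM in CK for the second, again with no overlap. Mean OE levels were 16.0% and 16.6% of the CK mean in Potri.004G082400 and Potri.012G042100, 32.2% in Potri.015G031600, 42.3% in Potri.T105400 and 54.7% in the leading copy. The leading copy therefore made up a larger share of summed KAN1 TPM in OE leaves, 73.3% to 86.1% in OE libraries and 54.8% to 65.9% in CK, a difference that was not tested.

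The 6 KANADI copies under the filter were compared by exact two-sided permutation of 8 OE against 4 CK libraries, 6 tests with no adjustment. For the 4 lesser KAN1 copies and the lesser KAN2 copy p was 0.00202, the smallest value this test can give. Their differences in mean log2(TPM + 1) ran from -0.92 (Potri.004G082400) to -0.21 (Potri.T105400). For the lesser ATS copy the difference was -0.09 (exact permutation p = 0.0121), and without CK replicates 1 and 2 its exact permutation p was 0.0667. Values this low are near the resolution of the table, and reads divided between similar copies by Salmon make the split among the KAN1 copies uncertain.

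**Figure D1:**
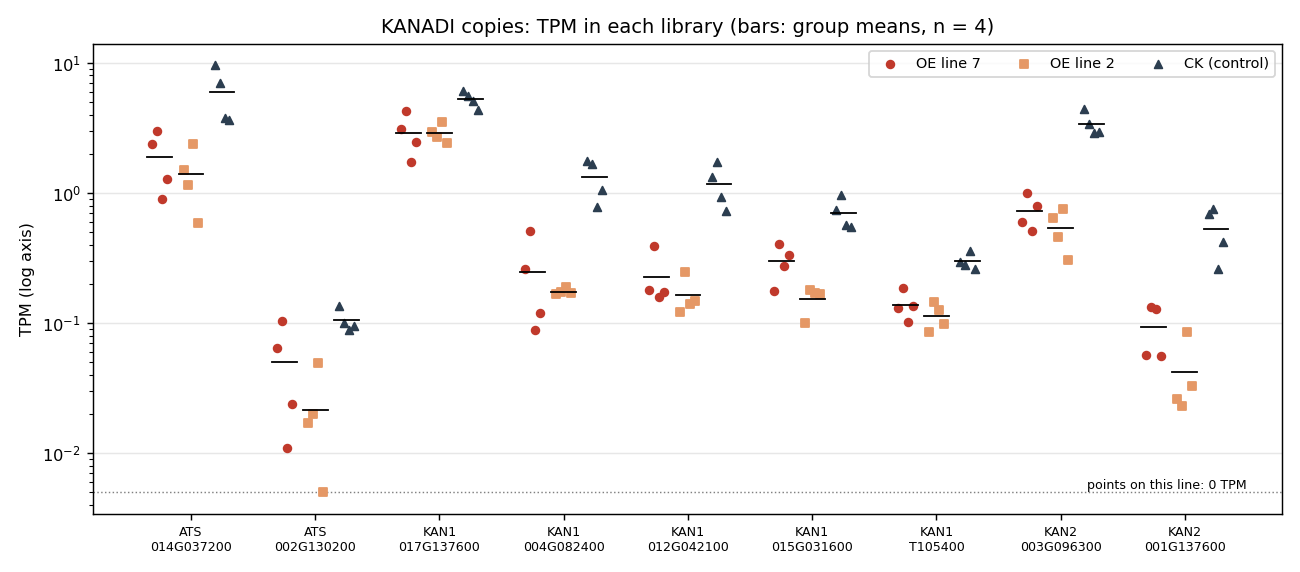
TPM (log axis) of the 9 KANADI copies in each library of line 7, line 2 and CK; each point is a library and each bar a group mean (n = 4). OE and CK points do not overlap in 8 copies, and the lesser ATS copy, which has 1 OE library at 0 TPM, is the exception.

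HD-ZIP III transcripts were lower in OE leaves in 6 of 8 copies by the same test, against 34.0% of all genes, but no copy had all OE libraries below CK. The 8 copies had a median log2 fold change of -0.69. Leaving out CK replicate 1 alone or CK replicate 2 alone reduced the count to 3 of 8 in either case, against 25.1% and 25.3% of all genes. For line 7 alone, limma then called 0 of 8 copies without CK replicate 1 and 0 of 8 without CK replicate 2. In this comparison 15.7% and 15.4% of all genes were lower, and 3 copies had an unadjusted p under 0.05 in each fit. In each of the 8 copies CK replicates 1 and 2 lay above CK replicates 3 and 4, as they did in 56.9% of all genes tested. Without CK replicates 1 and 2, 0 of 8 HD-ZIP III copies were called by limma and 2 had an unadjusted p under 0.05, ATHB15 Potri.001G188800 as lower and ATHB8 Potri.018G045100 as higher (adjusted p from 0.0761 to 0.783). Over all 20 polarity copies that setting left 2 of 14 tested copies lower, KAN2 Potri.003G096300 and AS1 Potri.017G112300, against 14.2% of all genes.

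PHB specifies the upper leaf side in Arabidopsis, and its leading copy had the largest change of the 8. That copy (Potri.001G372300) was at 9.05, 13.9, 4.95 and 6.31 TPM in replicates 1 to 4 of line 7, 6.11, 10.95, 7.79 and 5.71 TPM in those of line 2, and 29.6, 23.4, 11.5 and 12.1 TPM in those of CK. Of the 8 OE libraries, 7 were below every CK library, and replicate 2 of line 7 was above CK replicates 3 and 4. Means were 8.099 ± 3.07 TPM in OE leaves (SD, n = 8) and 19.1 ± 8.87 TPM in CK leaves (SD, n = 4), with a log2 fold change of -1.10 (SE 0.30, limma adjusted p = 0.00965). Without CK replicates 1 and 2 the change was -0.56 (limma adjusted p = 0.211). The lesser PHB copy (Potri.011G098300) was at 0.864 to 2.39 TPM in OE libraries and 1.96 to 4.98 TPM in CK, with a log2 fold change of -0.80 (SE 0.24, limma adjusted p = 0.0157). That call was lost without CK replicate 1 alone or CK replicate 2 alone (limma adjusted p = 0.0638 and 0.0582).

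REV, which acts in lateral meristems, leaf polarity and the vascular strand, changed less. The leading copy (Potri.009G014500) was at 4.99, 7.76, 6.45 and 4.803 TPM in replicates 1 to 4 of line 7, 5.24, 6.03, 5.02 and 5.57 TPM in those of line 2, and 13.02, 12.7, 5.63 and 6.74 TPM in those of CK. CK replicates 1 and 2 stood above every other library, and CK replicates 3 and 4 lay within the OE range. The log2 fold change came to -0.58 (SE 0.21, limma adjusted p = 0.0335), and -0.10 (limma adjusted p = 0.644) without CK replicates 1 and 2. The call was lost without CK replicate 1 alone or 2 alone (limma adjusted p = 0.126 and 0.125), and marginally (0.0501 to 0.0585) without replicate 1 or 3 of line 2 or replicate 1 or 4 of line 7. The other REV copy (Potri.004G211300) was at 2.54 to 3.75 TPM in OE libraries and 2.88 to 6.33 TPM in CK, with a log2 fold change of -0.44 (SE 0.17, limma adjusted p = 0.04703). Under median ratio scaling this call was lost (limma adjusted p = 0.0729), as it was in 9 of the 12 fits that left out 1 library, all but those without CK replicate 3, CK replicate 4 or replicate 3 of line 7. In either line alone Potri.004G211300 did not pass, with -0.46 in line 7 and -0.42 in line 2 (limma adjusted p = 0.0788 and 0.0965).

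ATHB8, a marker of early vascular (procambial) cells, had a leading copy that fell and a lesser copy that did not pass. The leading copy (Potri.006G237500) was at 11.4, 16.3, 7.43 and 8.13 TPM in replicates 1 to 4 of line 7, 8.18, 10.96, 9.903 and 7.88 TPM in those of line 2, and 26.97, 22.7, 12.9 and 14.6 TPM in those of CK. Only replicate 2 of line 7 reached into the CK range. The log2 fold change came to -0.86 (SE 0.23, limma adjusted p = 0.00831), and -0.46 (limma adjusted p = 0.181) without CK replicates 1 and 2. The lesser copy (Potri.018G045100) was at 2.98, 3.64, 2.58 and 2.43 TPM in replicates 1 to 4 of line 7, 1.94, 3.65, 2.54 and 2.96 TPM in those of line 2, and 3.99, 3.81, 1.75 and 1.98 TPM in those of CK. These groups overlapped fully, with a log2 fold change of 0.02 (SE 0.19, limma adjusted p = 0.932) and an interval (95%) from -0.40 to 0.44.

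ATHB15, known in Arabidopsis for vascular and meristem patterning, showed the same split between copies. The leading copy (Potri.001G188800) was at 2.91, 4.82, 2.58 and 3.28 TPM in replicates 1 to 4 of line 7, 2.88, 3.29, 2.81 and 2.56 TPM in those of line 2, and 10.6, 9.71, 4.47 and 4.59 TPM in those of CK. All OE libraries except replicate 2 of line 7 were below CK, and the log2 fold change came to -0.94 (SE 0.22, limma adjusted p = 0.00427), or -0.44 (limma adjusted p = 0.0761) without CK replicates 1 and 2. The lesser copy (Potri.003G050100) was at 3.08, 4.07, 1.91 and 2.64 TPM in replicates 1 to 4 of line 7, 2.42, 3.197, 3.28 and 2.26 TPM in those of line 2, and 5.01, 3.91, 1.85 and 1.85 TPM in those of CK. Here CK replicates 3 and 4 were the lowest of all 12 libraries, and the log2 fold change came to -0.05 (SE 0.22, limma adjusted p = 0.862), with an interval (95%) from -0.53 to 0.44. Its sign turned to 0.42 without CK replicates 1 and 2 and to 0.09 under median ratio scaling, neither past the threshold.

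Many markers of vascular cells were also lower in OE leaves. The procambium list (PXY, WOX4 and TMO6 copies) summed to 28.8, 59.01, 19.5 and 18.6 TPM in replicates 1 to 4 of line 7, 12.5, 36.7, 21.6 and 17.8 TPM in those of line 2 and 87.3, 94.6, 33.95 and 39.8 TPM in those of CK. CK replicates 1 and 2 were highest and replicate 2 of line 7 was highest among OE libraries, the order also seen in the leading copies of PHB, ATHB8 and ATHB15. Of all genes tested, 56.9% had CK replicates 1 and 2 above CK replicates 3 and 4. Replicate 2 of line 7 was the highest OE library in 25.6%. Of the 5 procambium rows, 3 fell in OE leaves, against 34.0% of all genes tested. One of those that fell, WOX4 Potri.002G124100, passed the filter through CK replicates 1, 2 and 4 and replicate 2 of line 7. The TMO6 copy had a log2 change of 0.30 and did not pass (limma adjusted p = 0.348). Xylem markers summed to 14.9 to 86.5 TPM in OE libraries and 216 to 285 TPM in CK, and 8 of 8 tested fell. Of these, XCP1 Potri.004G207600 and IRX1 Potri.011G069600 passed the filter through their CK libraries, with too few OE libraries at 1 TPM to pass without them. Their calls are given as a description. Phloem markers summed to 108 to 451 TPM in OE libraries and 386 to 807 TPM in CK with 17 of 19 tested lower. Most of these rows were copies of a single locus, SEOB, and the tested SUC2 copy (Potri.019G085800) did not pass (limma adjusted p = 0.0592). SEOB Potri.010G050200, called lower, passed the filter through its CK libraries, and only replicate 2 of line 7 reached 1 TPM among OE libraries (1.24). That call is given as a description. Epidermis markers summed to 76.04 to 344 TPM in OE libraries and 274 to 364 TPM in CK with 3 of 4 tested lower. Most of the epidermis sum came from FDH Potri.006G218000, which did not pass (limma adjusted p = 0.177). The PDF1 copies Potri.002G060800 and Potri.005G200900, called lower, passed the filter through CK replicates 1, 2 and 4 and replicate 2 of line 7. They were at 52.02 and 64.3 TPM in CK replicate 1 but 0.283 and 0.601 TPM in CK replicate 3, so their calls are given as a description. When CK replicates 1 and 2 were left out, 0 of 4 procambium, 6 of 8 xylem, 2 of 18 phloem and 0 of 2 epidermis markers were lower, against 12.6% of all 24135 genes tested in that fit. Of the HD-ZIP III copies, 0 of 8 were lower in it. No row of these 4 lists was at 0 in all libraries, and the part of these cell types in the HD-ZIP III, KANADI and AS1 values was not tested.

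**Figure D2:**
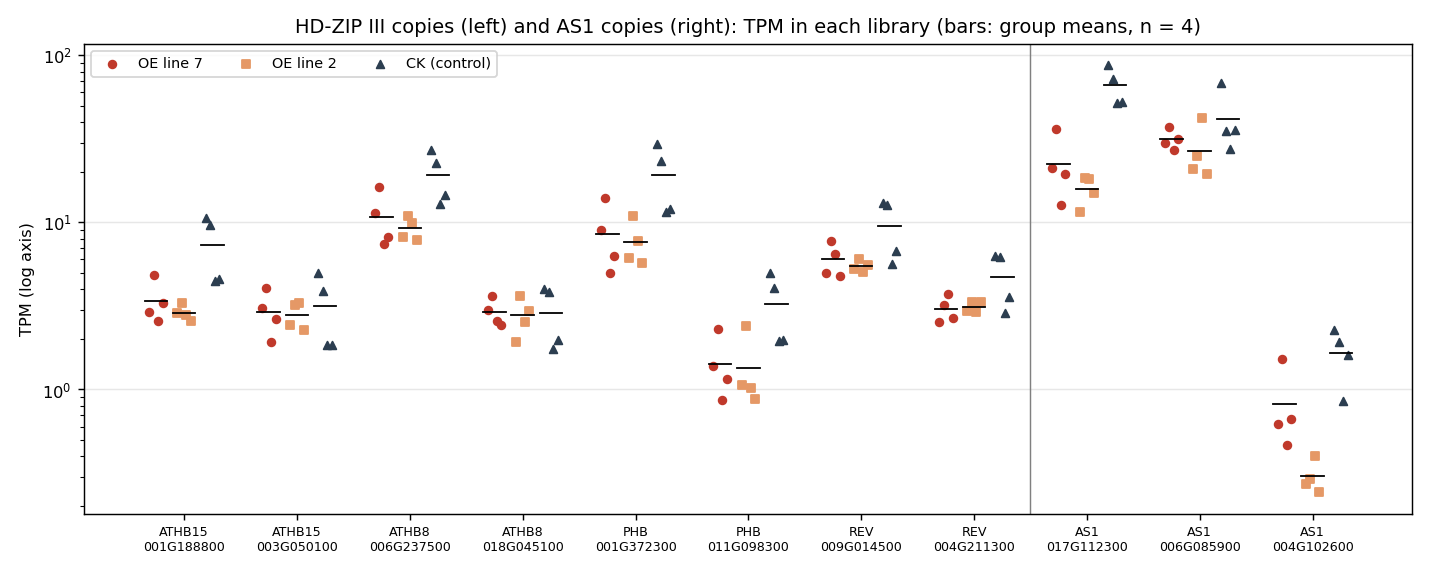
TPM (log axis) of the 8 HD-ZIP III copies and the 3 AS1 copies in each library of line 7, line 2 and CK; each point is a library and each bar a group mean (n = 4). CK splits into 2 high and 2 low libraries in every HD-ZIP III copy, and only AS1 Potri.017G112300 has all OE points below all CK points.

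AS1 transcripts were lower in OE leaves in 2 of 3 copies, against 34.0% of all genes tested. The copy Potri.017G112300 had the largest fall of the 14 tested copies on the log2(TPM + 1) scale. As a ratio of mean TPM that copy was at 28.9% of CK, while KAN2 Potri.003G096300 was at 18.5% and ATS Potri.014G037200 at 27.5%. Potri.017G112300 was at 21.3, 36.1, 12.8 and 19.5 TPM in replicates 1 to 4 of line 7, 11.5, 18.4, 18.2 and 15.05 TPM in those of line 2, and 87.2, 72.5, 51.6 and 52.9 TPM in those of CK. All 8 OE libraries lay below CK, the highest being replicate 2 of line 7. Means were 19.1 ± 7.66 TPM in OE leaves (SD, n = 8) and 66.1 ± 17.03 TPM in CK leaves (SD, n = 4), and the log2 fold change came to -1.78 (SE 0.24, limma adjusted p = 0.000187), with -1.57 in line 7 and -1.99 in line 2 (limma adjusted p = 0.00166 and 0.000318). The fall held without CK replicates 1 and 2, at -1.48 (limma adjusted p = 0.00889). The second copy, Potri.006G085900, was at 29.96, 37.4, 27.1 and 31.7 TPM in replicates 1 to 4 of line 7, 20.97, 25.1, 41.97 and 19.4 TPM in those of line 2, and 68.1, 35.3, 27.5 and 35.9 TPM in those of CK. Its groups overlapped, CK replicate 1 stood above the other 3 CK libraries, and the log2 fold change of -0.46 (SE 0.24, limma adjusted p = 0.128) did not pass. It passed without replicate 3 of line 2 (limma adjusted p = 0.0396) and was -0.20 without CK replicate 1. The third copy, Potri.004G102600, was at 0.62, 1.52, 0.466 and 0.664 TPM in replicates 1 to 4 of line 7, 0.273, 0.293, 0.399 and 0.242 TPM in those of line 2, and 2.26, 1.92, 0.854 and 1.6 TPM in those of CK. The log2 fold change came to -0.78 (SE 0.17, limma adjusted p = 0.00343), with OE and CK overlapping through replicate 2 of line 7. It passed the filter through 3 CK libraries and that OE library, and missed the threshold without CK replicates 1 and 2 (limma adjusted p = 0.0783).

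The order of the AS1 copies differed between the groups. Potri.017G112300 gave 30% to 48.2% in OE libraries and 55.3% to 66.1% in CK, as a share of summed AS1 TPM, and Potri.006G085900 gave 49.8% to 69.3% in OE libraries and 32.2% to 43.2% in CK. The TPM ratio of the first to the second copy was 0.433 to 0.967 in OE libraries and 1.28 to 2.05 in CK, so that the second copy led in all 8 OE libraries and the first in all 4 CK libraries.

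Such differences between copies of a locus were tested in 6 pairs, as the within-library difference in log2(TPM + 1) compared over 8 OE against 4 CK libraries. Because both copies come from the same library, a shift common to a library cancels on the log scale apart from the pseudocount. The AS1 pair Potri.017G112300 and Potri.006G085900 differed by -1.32 (exact permutation p = 0.00202) between OE and CK. For ATHB15 (Potri.001G188800 and Potri.003G050100) the value was -0.89 (exact permutation p = 0.00202), and for ATHB8 (Potri.006G237500 and Potri.018G045100) it was -0.88 (exact permutation p = 0.00202). These p-values are unadjusted and the smallest the test can give, and without CK replicates 1 and 2 the values were -1.34, -0.85 and -0.87 (exact permutation p = 0.0222 each, again the smallest possible). The part that Salmon's division of reads between similar copies plays in these balances was not tested.

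In ATHB15 the leading copy made up 46.1% to 57.4% in OE libraries and 68% to 71.3% in CK, and in ATHB8 72.7% to 81.8% in OE libraries and 85.6% to 88.1% in CK. The copies of PHB and REV kept closer shares, with the leading PHB copy at 82.1% to 88.4% in OE libraries and 85.2% to 85.9% in CK and the leading REV copy at 62.5% to 70.8% in OE libraries and 65.3% to 67.4% in CK. For PHB the difference between copies was -0.30 (exact permutation p = 0.0222) but -0.04 with a pseudocount of 0.1 (exact permutation p = 0.697), and for REV it was -0.14 (exact permutation p = 0.143). Without replicate 2 of line 7 the REV difference was -0.19 (exact permutation p = 0.00606). The AS1 pair Potri.017G112300 and Potri.004G102600 differed by -1.004 (exact permutation p = 0.00202), but by -0.31 with a pseudocount of 0.1 (exact permutation p = 0.226), and their TPM ratio overlapped, 23.8 to 62.8 in OE libraries and 33.1 to 60.5 in CK.

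**Figure D3:**
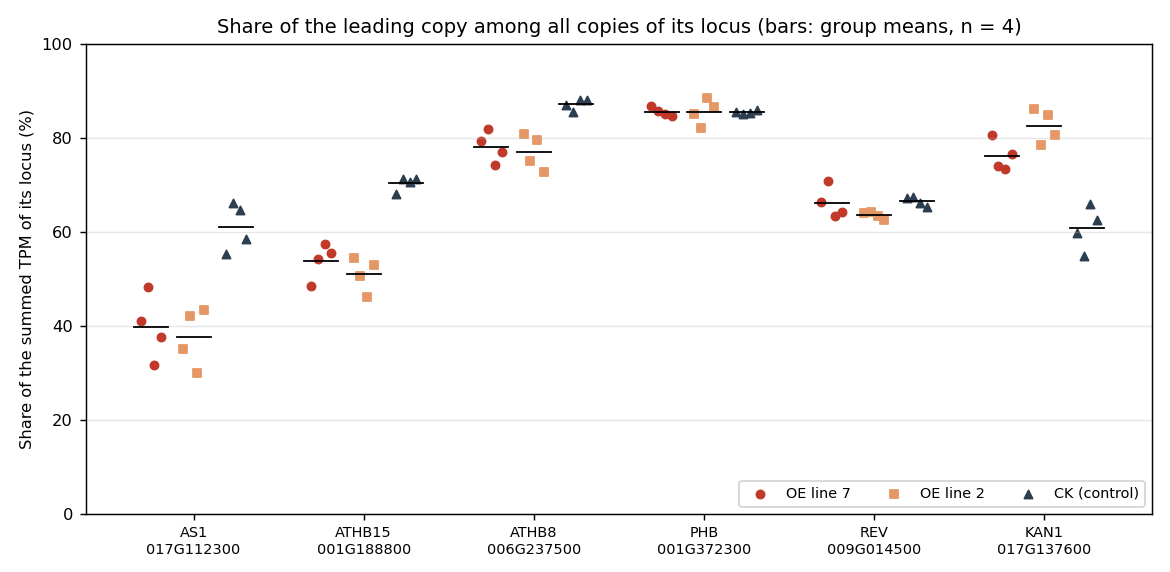
Share (%) of the leading copy in the summed TPM of all copies of its locus, per library of line 7, line 2 and CK; each point is a library and each bar a group mean (n = 4). OE and CK shares are apart in AS1, ATHB15, ATHB8 and KAN1 and overlap in PHB and REV.

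**Figure D4:**
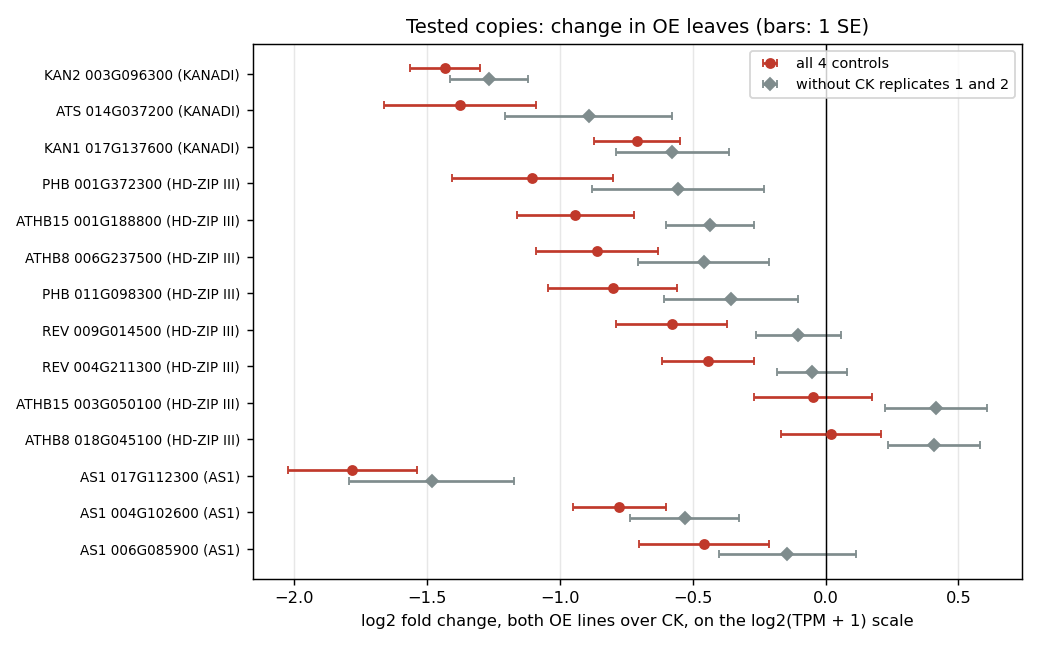
Log2 fold change of both OE lines over CK, on the log2(TPM + 1) scale, for the 14 tested copies, with all 4 controls and without CK replicates 1 and 2; bars are 1 SE of the limma fit. On this scale KAN2 and AS1 Potri.017G112300 keep the largest falls, while the lesser ATHB15 and ATHB8 copies move to 0.42 and 0.41.

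Summed over its copies, KANADI was at 3.899 to 9.96 TPM in OE libraries and 13.97 to 25.1 TPM in CK, with no overlap. HD-ZIP III summed to 30.5 to 56.03 TPM in OE libraries and 42.97 to 100.5 TPM in CK, and replicate 2 of line 7 (56.0) and replicate 2 of line 2 (43.8) reached above the lowest CK value. AS1 summed to 32.7 to 75.02 TPM in OE libraries and 79.97 to 158 TPM in CK. The ratio of summed KANADI to summed HD-ZIP III TPM, which a common scaling of a library does not change, was 0.182, 0.178, 0.128 and 0.172 in replicates 1 to 4 of line 7, 0.182, 0.116, 0.209 and 0.127 in those of line 2 and 0.249, 0.248, 0.343 and 0.295 in those of CK. Every OE ratio was below every CK ratio, and CK replicates 1 and 2 had lower ratios than CK replicates 3 and 4. The sums and this ratio are descriptions with no test. Within HD-ZIP III, PHB made up 19.1% to 30.5% in OE libraries and 29.7% to 34.4% in CK, ATHB8 32.8% to 37.4% in OE libraries and 30.6% to 34.9% in CK, REV 19.6% to 33.4% in OE libraries and 19.2% to 21.9% in CK and ATHB15 14.7% to 18.8% in OE libraries and 13.6% to 15.7% in CK. Within KANADI, KAN1 made up 55.4% to 76.6% in OE libraries and 40.8% to 52.5% in CK and KAN2 8.51% to 16.4% in OE libraries and 19.4% to 24% in CK.

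**Figure D5:**
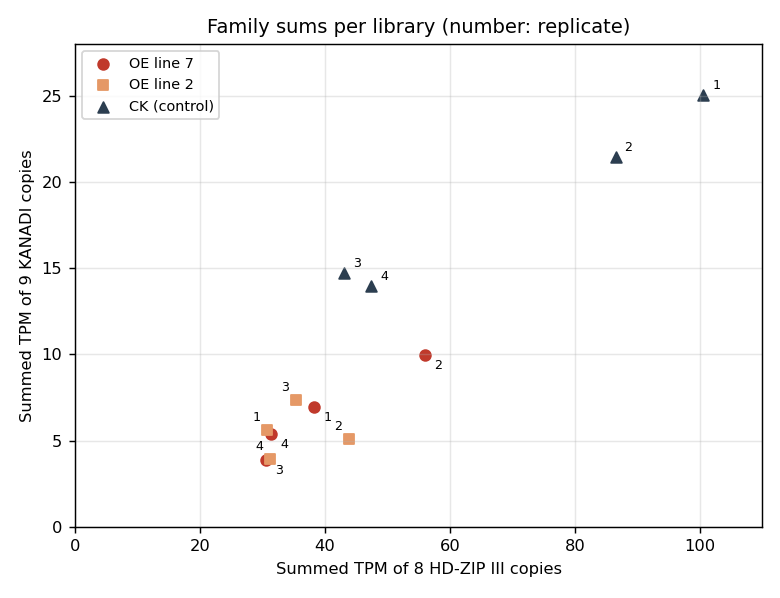
Summed TPM of the 9 KANADI copies (vertical) against that of the 8 HD-ZIP III copies (horizontal) for each library of line 7, line 2 and CK, numbered by replicate. OE libraries lie between 3.90 and 9.96 on the KANADI axis and CK libraries between 14.0 and 25.1, while on the HD-ZIP III axis CK replicates 3 and 4 lie among OE libraries.

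Across all 20 copies, both lines together had 11 lower and 0 higher among 14 tested, against 34.0% of all genes tested lower, with a median log2 fold change of -0.79. Line 7 had 9 lower (24.8% of all genes tested) and line 2 had 10 lower (32.4%), and 0 copies were higher in either. The 3 copies that did not pass with both lines together were AS1 Potri.006G085900 and the lesser copies of ATHB8 and ATHB15. Median ratio scaling, which gave a median change of all genes of 0.02 in place of -0.13, left 10 copies lower and 0 higher. In that fit 6753 of 24922 genes tested were lower. The lines were compared with each other in the same fit. Between line 7 and line 2, 0 of 14 copies passed with limma, as did 0.0% of all genes tested, and 1 copy had an unadjusted p under 0.05 (AS1 Potri.004G102600, log2 difference 0.45), as had 418 genes in all. The log2 difference, line 7 minus line 2, was positive in 12 of 14 copies and ran from -0.04 to 0.45, and the half-widths of the 95% intervals were 0.33 to 0.77, so that smaller differences were not detectable here. Its median was 0.13 over the 14 copies and 0.07 over all genes tested. Under median ratio scaling these medians were 0.04 and -0.01. In 16 of 20 copies replicate 2 of line 7 was the highest OE library, as in 25.6% of all genes tested.

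Genes that act with these factors were counted from lists of Arabidopsis loci. The LITTLE ZIPPER proteins, small partners that hold HD-ZIP III proteins inactive and are themselves HD-ZIP III targets in Arabidopsis, had 3 lower and 0 higher among 5 tested, with 34.0% of all genes tested lower. ZPR3 Potri.010G237600 was at 1.83 ± 1.104 TPM in OE leaves and 15.2 ± 7.87 TPM in CK leaves, a log2 change of -2.49 (limma adjusted p = 0.0004098). ZPR3 Potri.006G083200 was at 0.64 ± 0.394 TPM in OE leaves and 2.08 ± 0.518 TPM in CK leaves, a log2 change of -0.93 (limma adjusted p = 0.00204). This copy passed the filter through its CK libraries, and only replicate 2 of line 7 reached 1 TPM among OE libraries (1.353). It was thus tested because of its CK level, and its p and its place in the count are given as a description. ZPR2 Potri.002G149600 was at 2.11 ± 0.933 TPM in OE leaves and 4.74 ± 1.26 TPM in CK leaves, a log2 change of -0.91 (limma adjusted p = 0.006402). Both tested HD-ZIP II genes, whose products work with HD-ZIP III proteins on the upper side, were lower, against 34.0% of all genes tested. HAT3 Potri.014G045100 was at 2.92 ± 1.03 TPM in OE leaves and 9.93 ± 3.57 TPM in CK leaves, a log2 change of -1.47 (limma adjusted p = 0.000392), and ATHB2 Potri.003G079800 at 4.72 ± 1.297 TPM in OE leaves and 7.75 ± 2.71 TPM in CK leaves, a log2 change of -0.59 (limma adjusted p = 0.0343).

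Among 11 genes of the miR166 pathway, 6 were lower and 0 higher, against 34.0% of all genes tested lower. AGO10, which in Arabidopsis sequesters miR166 and so protects HD-ZIP III transcripts, had 2 copies, of which Potri.008G158800 was at 1.28 ± 0.648 TPM in OE leaves and 5.005 ± 2.58 TPM in CK leaves, a log2 change of -1.33 (limma adjusted p = 0.00155), whereas Potri.010G081300 did not pass (log2 change -0.12, limma adjusted p = 0.586). The slicer AGO1 was at 12.2 ± 2.77 TPM in OE leaves and 32.4 ± 14.6 TPM in CK leaves, a log2 change of -1.26 (limma adjusted p = 0.00121) for Potri.015G029000. For Potri.012G037100 it was at 34.3 ± 4.55 TPM in OE leaves and 57.3 ± 13.9 TPM in CK leaves, a log2 change of -0.70 (limma adjusted p = 0.00271). Of 20 genes of the tasiR-ARF pathway, which restrains ARF3 and ARF4 on the upper side, 6 were lower and 1 higher, and the lower share was below the 34.0% of all genes tested. The 6 were AGO7, DCL4, 2 copies of SGS3 and 2 copies of ARF2 (Potri.003G163600 and Potri.012G106100). AGO7 Potri.010G163800 was at 3.17 ± 0.632 TPM in OE leaves and 5.99 ± 0.972 TPM in CK leaves, a log2 change of -0.75 (limma adjusted p = 0.00103). Of the SGS3 copies, Potri.T045700 was at 8.201 ± 1.23 TPM in OE leaves and 15.9 ± 5.36 TPM in CK leaves, a log2 change of -0.83 (limma adjusted p = 0.00286) and Potri.001G037000 at 23.3 ± 6.73 TPM in OE leaves and 10.02 ± 2.65 TPM in CK leaves, a log2 change of 1.13 (limma adjusted p = 0.001598). The 3 ARF3 copies and the ARF4 copy did not pass. Without CK replicates 1 and 2, the counts of lower genes became 1 of 4 LITTLE ZIPPER, 1 of 2 HD-ZIP II, 3 of 11 miR166 pathway and 1 of 20 tasiR-ARF pathway genes. In that fit 12.6% of all genes tested were lower, and SGS3 Potri.001G037000 was still higher.

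Among AS1 partners and upstream factors, 2 of 5 tested were lower and 1 higher, with 34.0% of all genes tested lower. The AS2 copy that was tested (Potri.010G177100) had a log2 change of -0.41 (limma adjusted p = 0.194). The 2 copies of HIRA, a histone chaperone that works with AS1, were at 3.81 ± 0.395 TPM in OE leaves and 7.902 ± 2.24 TPM in CK leaves, a log2 change of -0.86 (limma adjusted p = 0.000657) for Potri.009G144800, and at 3.83 ± 0.336 TPM in OE leaves and 5.596 ± 1.05 TPM in CK leaves, a log2 change of -0.44 (limma adjusted p = 0.00612) for Potri.004G184900. BOP2 Potri.006G043400, from a family that activates AS2 in Arabidopsis, was at 2.89 ± 1.15 TPM in OE leaves and 0.8695 ± 0.511 TPM in CK leaves, a log2 change of 1.05 (limma adjusted p = 0.00375). This copy passed the filter through its OE libraries, and CK replicates 3 and 4 were below 1 TPM (0.574 and 0.312). It was thus tested because of its OE level, and its p and its place in the count are given as a description. The other BOP2 copy, Potri.016G040500, was at 1.12 ± 0.517 TPM in OE leaves and 2.07 ± 0.893 TPM in CK leaves, a log2 change of -0.52 (limma adjusted p = 0.0507), and did not pass. None of 9 KNOX rows reached 1 TPM in any library, and their sum was 0.247 to 0.89 TPM in OE libraries and 0.024 to 0.477 TPM in CK. YABBY genes, another lower-side family, had 7 lower and 0 higher among 8 tested, against 34.0% of all genes tested lower. FIL Potri.003G112800 was at 3.58 ± 2.64 TPM in OE leaves and 34.8 ± 7.24 TPM in CK leaves, a log2 change of -3.15 (limma adjusted p = 0.000108), YAB2 Potri.001G214700 at 21.1 ± 4.63 TPM in OE leaves and 45.3 ± 6.63 TPM in CK leaves, a log2 change of -1.09 (limma adjusted p = 0.0001896), and YAB5 Potri.018G129800 at 7.304 ± 3.803 TPM in OE leaves and 36.8 ± 12.3 TPM in CK leaves, a log2 change of -2.24 (limma adjusted p = 0.000202). With CK replicates 1 and 2 left out, 1 of 4 AS1 partners was lower and BOP2 Potri.006G043400 higher, the latter again tested because of its OE level. In that fit 4 of 7 YABBY genes were lower, against 12.6% of all genes tested.

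The genes whose profiles were most like those of the leading copies were found among 15850 annotated genes with a mean of at least 5 TPM, by the mean absolute difference of log2(TPM + 1) over 12 libraries, each gene centred on its own mean. Nearest to KAN1 Potri.017G137600 were a nucleotide-sugar transporter (Potri.002G000500, 0.0827), a DUF288 protein (Potri.006G051000, 0.0842) and KOB1 (Potri.001G022700, 0.0981), against a median of 0.405 over all these genes. The transporter was at 19.04 ± 4.45 TPM in OE leaves and 32.3 ± 3.87 TPM in CK leaves. Nearest to ATHB8 Potri.006G237500 were a protein kinase (Potri.013G003700, 0.0758), the receptor kinase BAM1 (Potri.004G223900, 0.0931) and an exostosin family protein (Potri.018G085400, 0.097), against a median of 0.474. BAM1 was at 7.66 ± 2.64 TPM in OE leaves and 13.5 ± 4.05 TPM in CK leaves. Nearest to AS1 Potri.017G112300 were a C2H2-like zinc finger gene (Potri.005G238300, 0.143), a calponin homology domain gene (Potri.002G251600, 0.146) and a gene without description (Potri.019G014100, 0.147), against a median of 0.826. The zinc finger gene was at 4.56 ± 1.68 TPM in OE leaves and 20.9 ± 5.75 TPM in CK leaves.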

How the data were processed

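RNA of 12 leaf libraries was measured by sequencing. Per the labels' protocols, cDNA was primed with oligo(dT) and amplified. TPM were computed by the authors, who deposited a table of 34749 genes with near-equal totals per library. The submitters' processing notes list the tools cutadapt, FastQC and Salmon, with no version. Settings, build and annotation are not stated there. TPM are shares of a fixed total, so a rise of some genes lowers others. Salmon divides reads between similar copies.

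From the deposited TPM, log2(TPM + 1) was fitted for 24926 genes with at least 1 TPM in at least 4 libraries, by limma 3.58.1 (R 4.3.3, eBayes with a trend) with 3 groups. Tests were two-sided, with Benjamini-Hochberg adjustment over all tested genes. Fold changes on this scale understate the change of genes with low TPM. Exact permutation tests were run in Python 3.11.15. Every copy is named; from each list up to 3 tested genes of smallest p are named, with further genes chosen after their values were seen. The copies, lists and tests were chosen with earlier results of these data known, and leaving out CK replicates 1 and 2 with the 12-library filter kept was chosen after seeing the data. Other pseudocounts (0.1 and 5), filters, median ratio scaling, eBayes without a trend, a replicate block, fits of only the groups compared and fits without single libraries were tried as alternatives. The procedure was tested on simulated data. No sequences or coordinates were used.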

Additional observations from a re-analysis of the deposited data

Results flagged for a closer look

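Of 60 groups of 4 libraries (20 copies in 3 groups), 4 held a library whose gap to the nearest of the others, divided by the range of log2(TPM + 1), was above the critical value of Dixon's test, and chance flags about 1 in 20. For KAN1 Potri.012G042100, replicate 2 of line 7 had 0.391 TPM, against 0.159 to 0.179 TPM in the rest of that line (gap over range 0.906). For PHB Potri.011G098300, replicate 2 of line 2 had 2.39 TPM, against 0.88 to 1.06 TPM in the rest of that line (0.847). For KAN1 Potri.015G031600, replicate 1 of line 2 had 0.1 TPM and the others 0.168 to 0.178 TPM (0.876). For KAN2 Potri.001G137600, replicate 3 of line 2 had 0.085 TPM and the others 0.023 to 0.033 TPM (0.835). All 3 KANADI cases lie under the expression filter.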

How the results depend on the processing

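Of 865 alternative values of single copies, 711 kept direction and side of the threshold, 115 lost the call, 6 gained it and 33 changed sign; all sign changes were in the lesser ATHB15 and ATHB8 copies, which never passed. Counts below are for both lines, line 7 and line 2. Without CK replicates 1 and 2, 1, 1 and 1 copies were lower and 6872, 4559 and 6320 genes were called; with the 12-library filter kept these were 2, 2 and 3 copies and 7430, 5013 and 6885 genes. At a mean TPM of at least 5 they were 4, 3 and 4 copies of 5 tested and 9019, 7087 and 8240 of 16454 genes, as fewer are tested. With only the groups compared, line 7 had 5 lower copies and 10366 genes called. Leaving out each library in turn gave 7 to 11, 4 to 11 and 6 to 12 lower copies and 10883 to 13974, 7640 to 11244 and 9900 to 12647 genes called; the fewest came without CK replicates 1 or 2 (7, 4 and 6 copies), and for line 7 also without its replicates 3 (4) or 4 (5).

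The change of ATHB15 Potri.003G050100 ran from -0.20 to 0.15, -0.19 to 0.17 and -0.22 to 0.14 over single left-out libraries. It was 0.42, 0.43 and 0.40 without CK replicates 1 and 2, and 0.0911, 0.0692 and 0.11 under median ratio scaling. That of ATHB8 Potri.018G045100 ran from -0.13 to 0.16, -0.10 to 0.19 and -0.16 to 0.13; in line 2 it was 0.38 without CK replicates 1 and 2, 0.16 under median ratio scaling and 0.0016 at a pseudocount of 0.1.

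Among copy pairs, AS1 Potri.017G112300 and Potri.004G102600 differed by -0.31 at a pseudocount of 0.1. The PHB pair differed by -0.0383 there, -0.35 to -0.25 over single left-out libraries (call lost without CK replicate 1 or 2) and -0.20 without both. The REV pair differed by -0.15 at a pseudocount of 5, which passed, and by -0.19 to -0.11 over single left-out libraries, of which -0.19, without replicate 2 of line 7, also passed (exact permutation p = 0.00606). The lesser ATS copy differed by -0.076 without CK replicates 1 and 2 (exact permutation p = 0.0667). The cause of these shifts was not tested.

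The labels number replicates 1 to 4 in each group but say nothing of a shared source. Deviations of same-numbered libraries correlated at -0.472 to 0.415, and were above 0.1 in 9 of 12 pairs, against 9 of 36 pairs with different numbers. Since 3 same-numbered pairs were at or below 0.1, the numbers were not treated as pairing, and whether they mark a shared source is not known. With the replicate block, 10, 9 and 10 copies were lower and 13745, 10763 and 12527 genes called; for both lines, REV Potri.004G211300 lost its call (limma adjusted p = 0.064), and no other call on a copy changed. Depth is unknown, so how far it limits the KANADI copies under 1 TPM cannot be stated.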

Other observations

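Of the KNOX genes, a copy of STM, a gene of the shoot meristem, stood apart at a very low level, and it was picked after its values were seen. Potri.011G011100 was at 0.479, 0.202, 0.184 and 0.461 TPM in replicates 1 to 4 of line 7, 0.215, 0.373, 0.169 and 0.209 TPM in those of line 2, and 0, 0.017, 0.014 and 0.016 TPM in those of CK. Every OE library was above every CK library, but no library reached 1 TPM, and no test was run. How many of all genes show this pattern was not counted. The other STM row was at or below 0.017 TPM in every library. KNAT6 Potri.013G008600 was at 0.079, 0.20, 0.119 and 0.26 TPM in replicates 1 to 4 of line 7, 0.014, 0.458, 0.072 and 0.61 TPM in those of line 2, and 0.014, 0.366, 0 and 0.013 TPM in those of CK, with overlap between OE and CK.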
